A study of Homo sapiens with 2 samples.

Results

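The protein arginine methyltransferase family was followed in human corneal epithelial cells (HCECs) after miR-184 transfection. The members were *CARM1*, *PRMT1*, *PRMT2*, *PRMT3*, *PRMT5*, *PRMT6*, *PRMT7*, *PRMT8* and *WDR77*, the partner protein of PRMT5. They were chosen by name, as the features of the array that carry exactly 1 gene symbol, and all 9 were found among the 22368 genes named in this way, each with 1 feature. HCECs are a corneal epithelial line immortalized with SV40, and the same line, kept in medium with serum, insulin and EGF, served in both conditions. One culture received 50 nM of miR-184 mimic, a synthetic RNA that supplies the mature miRNA, and the other 50 nM of negative control (NC), both with a lipid reagent. Both were harvested at 48 h and gave 1 array each. There was therefore no spread between replicates. No value below carries an error, no *P*-value could be computed, and an effect of the mimic cannot be told apart from any other way in which the 2 cultures differed.

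Arginine methyltransferases transfer methyl groups from S-adenosylmethionine to arginine residues of histones and of many RNA-binding proteins. Type I enzymes, which include CARM1 (also called PRMT4), PRMT1, PRMT2, PRMT3, PRMT6 and PRMT8, leave asymmetric dimethylarginine. PRMT5 is the main type II enzyme and leaves symmetric dimethylarginine, and PRMT7, of type III, leaves monomethylarginine. CARM1 methylates histone H3 and works as a coactivator of nuclear receptors together with acetyltransferases. A miRNA lowers its targets by pairing of its seed with sites in the 3′-untranslated region, and the study presents *CARM1* as a direct target of miR-184.

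The mature miR-184 is shown because the reporter constructs of the study were mutated where they match its seed. It lies on the plus strand at chr15:79209840-79209861 (GRCh38.p14, RefSeq), in the gene *MIR184*, and the capitals mark the seed, bases 2 to 8 from the 5′ end.
hsa-miR-184: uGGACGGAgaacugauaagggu
The perfect complement of this seed in an mRNA reads UCCGUCC, 5′ to 3′. Of the 2545 mature human miRNAs in the RefSeq table, 1 carried this seed, miR-184 itself. No 3′-untranslated sequence of the members was examined here. The array probes the *MIR184* precursor only (log2 signal 3.58 after miR-184 and 3.47 after NC), which says nothing on the dose of mimic.

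A difference is the log2 signal after miR-184 minus that after NC. Over all genes, 930 were lower after miR-184 by 1.5 times or more (4.16%) and 836 higher by as much (3.74%), and the median difference was 0.04. At 2 times the shares were 1.35% lower and 0.984% higher. Of the epithelial markers, *KRT5*, *KRT8*, *KRT18*, *CDH1* and *EPCAM* had log2 signals between 12.35 and 16.83 in both arrays. The corneal markers *PAX6*, *KRT3*, *KRT12* and *ALDH3A1* and the basal keratin *KRT14* were at 3.29 to 3.82, below the median of all genes (4.24). *TP63* was not among the named genes. The 6 markers of keratocytes and fibroblasts, *VIM* among them, read at most 4.24, and those of leukocytes (*PTPRC*) and melanocytes (*PMEL* and *TYR*) at most 3.79. Of the 2 vascular endothelial markers *PECAM1* was at most 2.62, while *CDH5* read 6.77 after miR-184 and 8.19 after NC. *KRT19*, listed with the conjunctival markers, read 13.02 and 13.95, whereas *MUC5AC* and *KRT13* were at most 4.21. Of the 24 measured markers, *KRT5* (0.88) and *CDH1* (0.75) were higher after miR-184 by 1.5 times or more, and *KRT19* (-0.92) and *CDH5* (-1.42) were lower by as much. The part of these marker differences in the results on arginine methyltransferases was not tested.

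*CARM1* was the only member that differed by 1.5 times or more, and the only one that differed by 2 times. It read 6.20 after miR-184 and 8.41 after NC on the log2 scale. With a difference of -2.21, the signal after miR-184 was 21.6% of that after NC. Of the 22368 genes 27 had a lower difference. The study selected *CARM1* among predicted targets that were lower in its array experiment, so its direction here is not independent evidence. The study also reported lower luciferase activity with the *CARM1* 3′-untranslated region after miR-184, in another cell line (HEK), and a weaker effect once the binding sites were mutated. In HCECs it reported lower CARM1 protein. The arrays measure neither. The other 2 genes that the study names as direct targets lay on either side, *CDC25A*, a cell cycle phosphatase gene, at -0.90 and *LASP1*, an actin-binding protein gene, at -2.83.

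**Figure D1:**
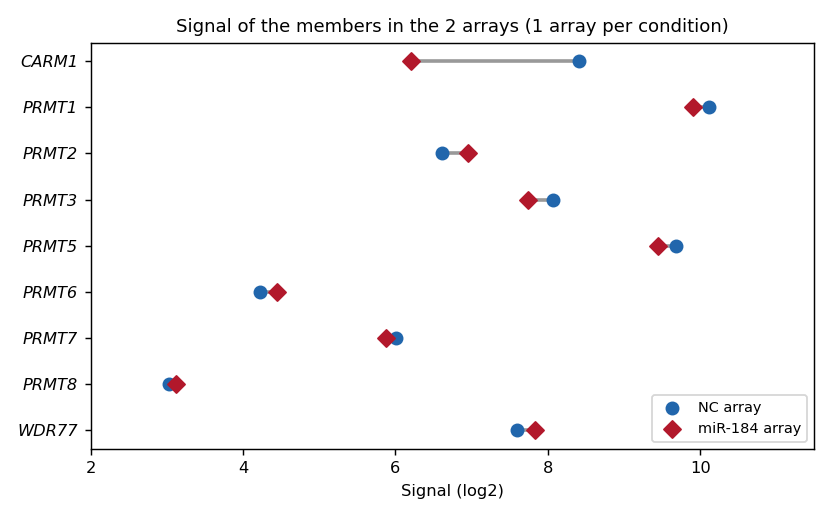
Signal of each member (x axis, log2) in the NC array (blue circles) and the miR-184 array (red diamonds), with 1 array per condition and a grey line joining both values. *CARM1* reads 8.41 and 6.20, and for the other 8 members the 2 symbols lie within 0.35 of each other.

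*PRMT1*, the enzyme responsible for most asymmetric dimethylarginine in mammalian cells, read 9.91 after miR-184 and 10.12 after NC (-0.21). *PRMT3*, a cytoplasmic enzyme that methylates a ribosomal protein, was at 7.74 against 8.07 (-0.33). This was the lowest difference after that of *CARM1*, which it exceeded by 1.88 on the log2 scale. The remaining type I genes lay on the other side of 0. *PRMT2*, which carries an SH3 domain and binds nuclear receptors, read 6.95 after miR-184 and 6.61 after NC, the highest difference of the family (0.35, 1.27 times higher). *PRMT6*, a nuclear enzyme of histone H3, read 4.45 against 4.23 (0.22). *PRMT8*, a membrane-bound relative of PRMT1 known from the brain, read 3.12 against 3.03 (0.09). Only 9.39% of genes had a lower mean signal than *PRMT8*, and whether its feature reports a transcript was not tested. The 5 type I genes other than *CARM1* thus had 2 values below 0 and 3 above, with a median difference of 0.09.

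*PRMT5*, which methylates the Sm proteins of the spliceosome, read 9.45 after miR-184 and 9.68 after NC (-0.23). *WDR77*, whose protein (also called MEP50) forms the active complex with PRMT5, was at 7.83 against 7.59 (0.23). The enzyme and its partner thus had differences of similar size and opposite sign. *PRMT7* read 5.88 against 6.00 (-0.13). None of the 8 members other than *CARM1* reached 1.5 times in either direction. Their differences ran from -0.33 to 0.35, with 4 below 0 and 4 above and a median of -0.02. For the whole family 1 of 9 members (11.1%) was lower by 1.5 times or more, against 4.16% of all genes. Among the 1000 genes nearest in mean signal, that share ran from 0.1% around *PRMT8* to 10.1% around *PRMT3*. Around *CARM1* it was 9.4%. The study had selected *CARM1*, the lower member, among predicted targets that were lower in its array experiment. No member was higher by 1.5 times, against 3.74% of all genes and 0.4% (*PRMT8*) to 11% (*PRMT1*) of genes of similar signal. The median difference of the 9 members was -0.13, beside 0.04 over all genes. Among genes of similar signal the medians ran from -0.04 around *PRMT5* to 0.05 around *PRMT8*. Of the members 5 lay below 0 and 4 above, also after centring on the median, quantile normalization or loess.

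**Figure D2:**
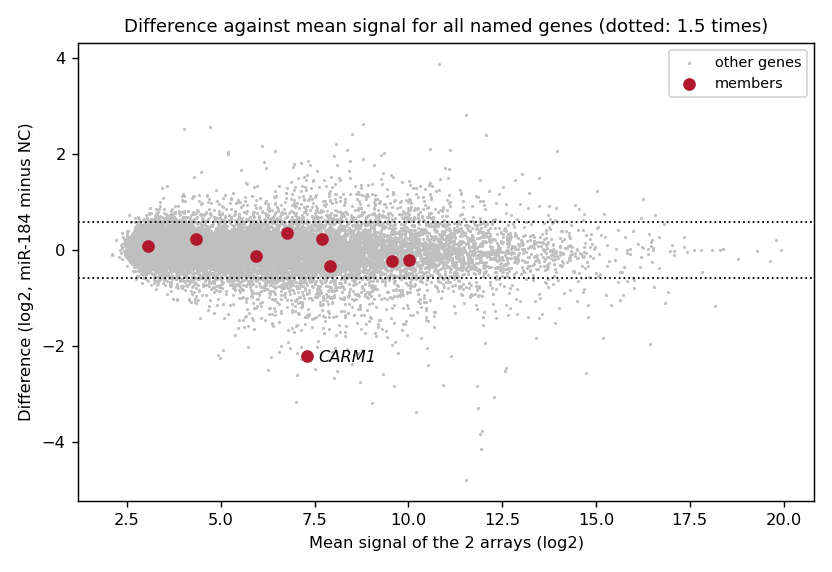
Difference in log2 signal, miR-184 minus NC (y axis), against the mean log2 signal of both arrays (x axis) for the 22368 named genes (grey) with the 9 members in red and dotted lines at 1.5 times. *CARM1* at -2.21 has 27 genes below it, and the other members lie within the dense band around 0.

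Because the scatter between the arrays grew with signal, each member was also set beside the 1000 genes nearest to it in mean signal. The SD of the difference among these genes ran from 0.17 around *PRMT8* to 0.54 around *PRMT1*. It is a spread across genes and not a replicate error. Around *CARM1* the central 95% of genes lay between -1.18 and 1.05, and 94 of the 1000 were lower by 1.5 times or more. *CARM1* lay outside that range. Of the 1000 genes 3 had a lower difference, namely *SNORD42A* (-2.60), a small nucleolar RNA, *RARRES1* (-2.47) and *SLC15A2* (-2.28). The other 8 members lay inside the central 95% of their own neighbours. *PRMT3* was the nearest to the lower end, with 20.9% of similar genes below it, and *PRMT2* to the upper end, with 14.9% of similar genes above it. *PRMT1* and *PRMT5* had 30.7% and 30.8% of similar genes below them, *PRMT7* 36.4% and *PRMT8* 60.2%. *WDR77* and *PRMT6* had 77.2% and 77.8% of similar genes below them.

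**Figure D3:**
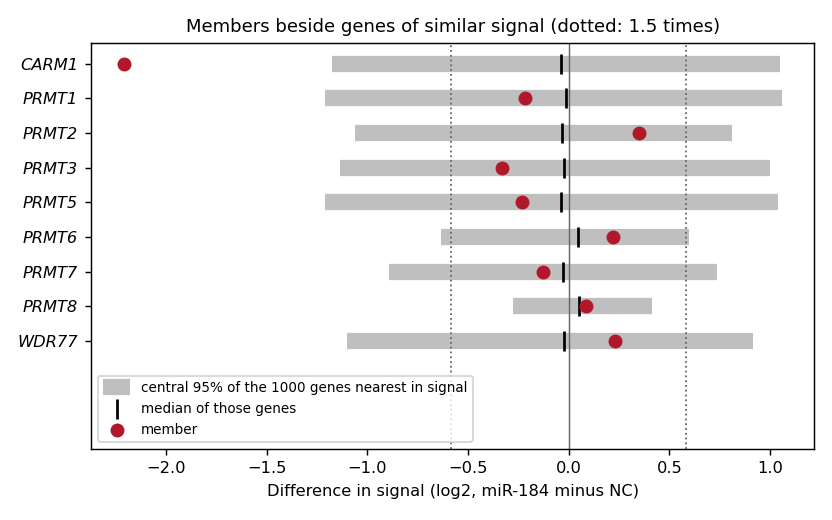
Difference in log2 signal, miR-184 minus NC, of each member (red points, x axis) over the central 95% of the 1000 genes nearest to it in mean signal (grey bars) and their median (black ticks). Dotted lines mark 1.5 times in each direction. *CARM1* at -2.21 lies beyond the lower end of its bar at -1.18, and the other 8 members lie inside theirs.

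The genes whose pair of signals was nearest to that of *CARM1*, by Euclidean distance over both arrays, were *SLC15A2*, *ABHD4*, *RARRES1*, *IGHD2-21* and *CTSS*. The likeness rests on 2 arrays and on the signal of different probes. *SLC15A2*, a peptide transporter gene, read 6.01 after miR-184 and 8.29 after NC at a distance of 0.23. *ABHD4*, a lipid hydrolase gene, read 6.13 and 8.16 (0.26), and *RARRES1*, a gene induced by retinoic acid, 6.28 and 8.75 (0.35). The immunoglobulin segment *IGHD2-21* and *CTSS*, which encodes the lysosomal protease cathepsin S, were both at a distance of 0.39. The ratio of the signals was smallest for *IGHD2-21*, which was 4.07 times lower after miR-184, and largest for *RARRES1*, 5.55 times lower.

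Related loci and neighbours in the genome were looked up after the values of the members had been seen. The pseudogene *CARM1P1* read 3.40 after miR-184 and 3.39 after NC. *PRMT5-AS1*, antisense to *PRMT5*, had the same value in both (2.78). *CARM1* lies on chromosome 19 between *C19orf38* and *YIPF2*, in the order of the RefSeq annotation. Of the 3 protein-coding genes on each side of it, all 6 were measured. *YIPF2* (0.64), which encodes a Golgi membrane protein, was higher by 1.5 times or more and none was lower by that much. Over the corresponding neighbours of all 9 members, 45 were measured, with 5 lower and 4 higher by 1.5 times or more. These are larger shares than the 4.16% and 3.74% of all genes, which unlike the neighbours include non-coding genes. Among the 1000 genes nearest in signal to a member, the shares reached 10.1% lower (*PRMT3*) and 11% higher (*PRMT1*). An excess among the neighbours was not tested. The lowest of the 6 beside *CARM1* was *TMED1* (-0.53), and *SMARCA4*, the ATPase of the BAF chromatin remodelling complex, was at 0.31. *PRMT1* lies on the same chromosome, between *BCL2L12* (-0.63), which was lower by more than 1.5 times, and *ADM5* (0.04). The lowest neighbours of any member were *RBM23* (-0.86), beside *PRMT5*, and *SLC7A6* (-0.81), near *PRMT7*. The highest were *ZFP90* (0.74), near *PRMT7*, and *SLC25A24* (0.69), near *PRMT6*.

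Beyond the family, 57 genes of the arginine methylation pathway were listed by role, and 47 of them were measured by a feature with a single symbol. Of the 47, 4 were higher after miR-184 by 1.5 times or more and none lower by that much. The median was -0.05, with 27 values below 0 and 18 above, with 24 below and 23 above after quantile normalization, and with 32 below and 15 above after centring on the median. The corresponding shares, 8.51% higher and 0% lower, stand beside 3.74% and 4.16% of all genes. All 4 higher genes were at or above the median signal. So were 698 of the 836 higher and 866 of the 930 lower among all genes. The shares over all genes are thus below those among brighter genes, and an excess of higher pathway genes was not tested. The 4 were *DDAH1*, *TAF15*, *ADK* and *RIOK1*, which belong to 4 different lists, and none of them reached 2 times.

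Of the other arginine methyltransferases, *PRMT9* (0.04), which methylates a splicing factor, *METTL23* (0.02) and the mitochondrial enzyme gene *NDUFAF7* (0.17) were within 0.17 of 0, and centring the differences on their median put the first 2 below 0. Among partners and regulators of the family, *RIOK1*, a kinase that brings substrates to PRMT5, read 8.81 after miR-184 and 8.18 after NC (0.64, 1.55 times higher). The other adaptors of PRMT5 were *CLNS1A* (0.24) and *COPRS* (-0.25), the latter linking PRMT5 to histones. *BTG1*, an antiproliferative protein gene whose product binds PRMT1, was at -0.31. The genes of these 3 adaptors thus lay on both sides of 0. Of 4 measured readers of methylated arginine none reached 1.5 times. They were the splicing factor gene *SMNDC1* (-0.40), *TDRKH* (-0.17), *SPIN1* (0.09) and *TDRD3* (0.01). None of the listed genes *PADI1*, *PADI2*, *PADI3* and *PADI4*, whose enzymes convert arginine to citrulline, reached 1.5 times either. Neither did the dioxygenase gene *JMJD6* (-0.06). *PADI2* had the largest difference of that list (-0.29).

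The cycle that supplies S-adenosylmethionine and clears its by-product had 8 measured genes, 3 below 0 and 5 above, with a median of 0.14. After quantile normalization 2 lay below 0 and 6 above. When the features of each gene were averaged, the median was 0.06, with 4 genes below 0 and 4 above. Of the 8 genes 1 was higher by 1.5 times or more (12.5%), beside 3.74% of all genes, and an excess was not tested. *ADK*, the adenosine kinase that removes adenosine formed from S-adenosylhomocysteine, read 12.65 after miR-184 and 11.99 after NC (0.66, 1.58 times higher). *MAT2A*, the catalytic subunit of the enzyme that makes the methyl donor, was at 11.15 against 11.16 (-0.01), a difference whose sign turned under other scalings. Its regulatory subunit gene *MAT2B* (-0.25) and *AHCY* (-0.20), which hydrolyses S-adenosylhomocysteine, were below 0. Above 0 were *AHCYL2* (0.24), *MTR* (0.18), *MTAP* (0.15, but -0.21 on the mean of its features) and *AHCYL1* (0.13). Free asymmetric dimethylarginine, released when methylated proteins are degraded, is broken down by the DDAH enzymes. *DDAH1* read 6.59 after miR-184 and 5.84 after NC (0.75, 1.68 times higher), the largest difference of the pathway genes outside the family. *DDAH2* was at 0.21, and *AGXT2*, a mitochondrial aminotransferase gene, had the same value in both arrays (2.99).

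The 3 measured coactivators that act with CARM1 at nuclear receptors all had values below 0, also under those 3 scalings, and none reached 1.5 times in the values as deposited. *CREBBP*, an acetyltransferase gene, read 12.28 after miR-184 and 12.85 after NC (-0.57, 1.48 times lower), and passed 1.5 times after centring (-0.61). *NCOA2* (-0.42) and *NCOA1* (-0.32), which encode coactivators of the p160 family, were the other 2 measured of the 5 in the list. Of 7 measured substrates of CARM1, none reached 1.5 times, which for so few genes is near the shares over all genes (4.16% lower, 3.74% higher). The median was -0.09, with 5 below 0 and 1 above, and -0.02 after quantile normalization, with 4 below and 3 above. The lowest of the 7 were the splicing factor gene *SF3B4* (-0.40), *NONO* (-0.39) and the histone methyltransferase gene *KMT2D* (-0.32), and the BAF subunit gene *SMARCC1* was at 0.24. *MED12* was at -0.09 and *ELAVL1* at -0.05, the latter at 0.02 after quantile normalization. *PABPC1*, the poly(A)-binding protein gene, had the same value in both arrays (18.09), near the top of the scale, where a ceiling of the signal was not tested. Identical values in both arrays occurred in 923 of the 22368 genes. Of 10 measured substrates of PRMT1, PRMT3 or PRMT5, 9 lay below 0 and 1 above, or 6 and 4 after quantile normalization. The highest was *TAF15*, an RNA-binding protein gene, which read 11.00 after miR-184 and 10.33 after NC (0.67, 1.59 times higher). The lowest of the 10 were *KHDRBS1* (-0.33), which encodes the RNA-binding protein SAM68, and the Sm protein gene *SNRPD3* (-0.32), and their median was -0.07. These are RNA differences, and the methylation of the proteins was not measured on the arrays.

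**Figure D4:**
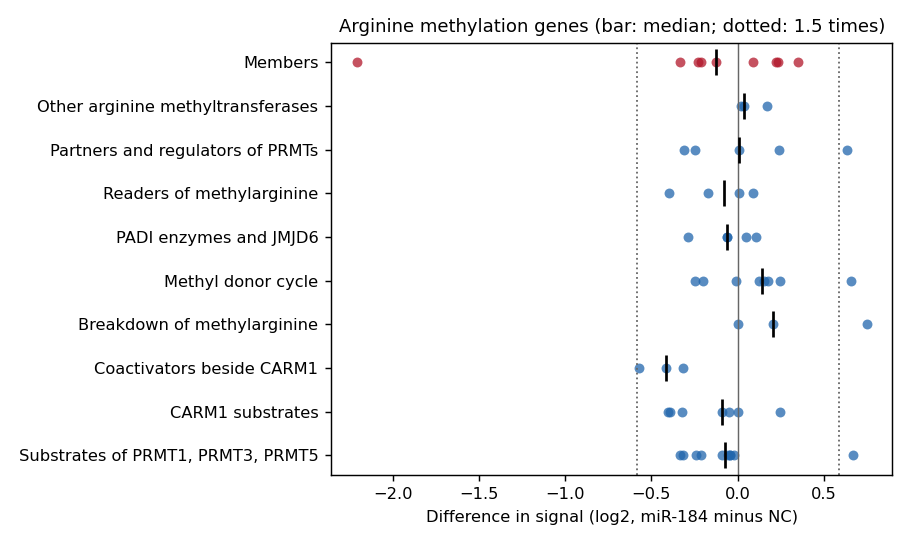
Difference in log2 signal, miR-184 minus NC (x axis), of the 9 members (red) and of each list of arginine methylation genes (blue), 1 point per measured gene, with black bars for the medians and dotted lines at 1.5 times. *CARM1* at -2.21 is the only point below the lower line, and 4 genes in 4 lists lie above the upper line.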

How the data were processed

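Total RNA of 1 miR-184 and 1 NC culture was hybridised to the Affymetrix Human Transcriptome Array 2.0. According to the methods, the authors normalized the data with Expression Console, and they deposited 1 log2 signal for each feature. An Agilent Cy3 protocol stands in the labels and Agilent Feature Extraction 9.1 in the submitters' processing notes, although the features have Affymetrix identifiers. The genome build behind them is not named in these sources. Of 65854 features 23730 had exactly 1 symbol, which gave 22368 genes after 303 symbols were updated to GRCh38.p14 RefSeq symbols. Where a gene had several features (520 genes), the one of highest mean signal represented it. The log2 signal of the miR-184 array minus that of the NC array was taken as the difference, without another normalization or a filter, and counted at 1.5 times. No test was made, and the number of arrays limits the precision.

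The members and lists were chosen with earlier results of these data known. Named were all members, *LASP1* and *CDC25A*, the genes of each list past 1.5 times or otherwise up to 3 with the largest differences, and the 5 genes nearest to *CARM1*, leaving out small RNAs, uncharacterised loci and clones. Any other gene was named after its value was seen. List genes whose feature had several symbols or none were not analysed here. A search for seed matches in transcripts and an alignment of the proteins had been planned and were not run, since neither kind of sequence was used here. The alternatives were centring on the median, quantile normalization, loess (span 0.3), averaging the features of each gene, genes at or above the median signal, a threshold of 2 times, all features, the 500 nearest genes, and nearest genes by NC signal. The steps were run on simulated data with shifts far larger than the simulated noise. That checks the code only and says nothing on the precision of these arrays. Python 3.11.15, numpy 2.4.6, pandas 2.3.3 and statsmodels 0.14.6 were used.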

Additional observations from a re-analysis of the deposited data

How the results depend on the processing

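Under centring, quantile normalization and loess, the difference of *CARM1* stayed between -2.25 and -2.17, and each of the 9 members kept its sign and its side of 1.5 times. Averaging features could not change the members, which have 1 feature each. *CARM1* also passed a threshold of 2 times. With the 500 nearest genes 0% had a larger fall than *CARM1*, and with genes nearest in NC signal 0.4% did. By NC signal 80.5% of the nearest genes lay below *PRMT6* and 50.3% below *PRMT8*. After centring 1 pathway gene was at least 1.5 times lower, *CREBBP* (-0.61), and at 2 times 0 were higher. Over all genes 303 were lower and 220 higher at 2 times, and over all features 2703 were lower and 2677 higher at 1.5 times, as more features were counted. Lower genes outnumbered higher ones in the values as deposited, but quantile normalization gave 865 lower and 907 higher, and centring 1077 lower and 705 higher. Among small differences the sign could turn: that of *MTAP* was 0.15 on its brightest feature and -0.21 on the mean of its 2, and those of *PRMT9*, *METTL23*, *TDRD3*, *MAT2A* and 5 other pathway genes also changed sign under at least 1 scaling. No paired analysis was possible because each condition has 1 array. With 1 array per condition, no error can be attached to any of these values.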
